A study of Mus musculus with 2 samples.

Results

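The genes that encode the proteins of the cytoplasmic ribosome were followed in single cells of the mouse mammary epithelium. Members were the symbols Rpl or Rps followed by a digit, Rplp followed by a digit, and Rpsa, without symbols that carry the pseudogene suffix -ps and without the S6 kinases, whose symbols begin with Rps6k. The rule took 87 of the 27998 genes in the tables, 53 with large subunit symbols and 34 with small subunit symbols. Of these, 78 were core symbols and 8 were paralogs whose symbols end in l or l1 (Rpl22l1, Rpl6l, Rps27l, Rpl10l, Rpl36al, Rpl39l, Rpl3l and Rpl7l1). The remaining 1, Rps19bp1, encodes a protein that binds a subunit protein and is no subunit protein itself. Rpl6l is annotated as a processed pseudogene, and Rps27rt is a retrogene.

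Ribosomal proteins assemble with ribosomal RNA into a large subunit, which joins amino acids, and a small subunit, which reads the mRNA. Cells make the proteins of both subunits in near equal amounts, and their mRNAs are among the most abundant of a growing cell. These mRNAs mostly begin with a tract of C and T, the terminal oligopyrimidine tract, through which the TOR kinase and the RNA-binding protein LARP1 set how strongly they are translated. In the mammary gland, an outer layer of contractile basal cells surrounds luminal cells, which are divided into luminal progenitor (LP) cells and mature luminal (ML) cells that carry hormone receptors.

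Cells came from untreated adult FVB/NJ female mice, an inbred strain, at 10 weeks of age. Both libraries were droplet-based Chromium libraries of 1 pool of 4 mice each, depleted of TER119+, CD31+ and CD45+ cells (Lin-), and dead cells were excluded by propidium iodide. The sorted basal library, gated Lin- CD29hi CD24+, held 4771 cells with 2488704 counts of unique molecules and a median of 487 per cell. The total epithelium library, gated Lin- CD24+, held 3302 cells with 9227651 counts and a median of 2425.5 per cell. With 1 library per gate, no difference has a replicate check, and no test was made across cells. Every interval below is an exact 95% interval unless called approximate, and covers counting error only. Between the libraries, the gate, the pool of mice, the depth and the library preparation cannot be told apart.

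The cells of the total epithelium library were divided by thresholds on the summed counts of other genes. Cells with at least 10 counts of Krt5, Krt14 and Acta2 were called basal-like (1280 cells), cells with at least 10 counts of Prlr, Stc2 and Gpx3 ML-like (1133 cells), and other cells with at least 3 counts of Krt8, Krt18 and Krt19 LP-like (766 cells). A further 26 cells passed both of the first thresholds and 97 passed none, and these were kept apart. A list of 8 basal markers gave a median of 70 counts in a basal-like cell and 0 in LP-like and ML-like cells, 8 LP markers gave 128 in LP-like cells, and 8 ML markers gave 68 in ML-like cells. The basal and ML lists hold the genes that the thresholds used, so these medians describe the split. Of the cells, 30 had 8 to 11 counts of the basal genes and 88 had 8 to 11 counts of the ML genes, near the thresholds. In the shallower sorted basal library 1757 cells passed the basal threshold. Fibroblast markers summed to 358 CPM in basal-like, 83.4 CPM in LP-like, 1419 CPM in ML-like and 605 CPM in sorted basal cells, where CPM are counts per 1000000 counts. Lists of endothelial, pericyte, immune, glial and red cell markers each summed to at most 88.8 CPM in these groups, with Cd3e and Ptprc at 0 in both libraries. The study lists Gpx3, one of the ML threshold genes, with Col3a1 among the leading genes of a small cluster that it places near basal cells. The part of that cluster and of the cells behind these markers in the results was not tested. The libraries shared 28 barcodes.

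To show the letters where such a tract would lie, 30 bases around a RefSeq start of the gene (build GRCm38.p6) are given for members on which the results below turn. They run 5′ to 3′ on the strand of the gene, with 15 bases before the annotated start, and capitals mark the longest run of 5 or more C or T in the 30 bases. Rplp0, Rps2 and Rpl4 were among the most abundant members, Rpl35 and Rpl5 were among the most different between the libraries, and Rps24, Rps28 and Rps27l with its parent Rps27 were among those most different between lineages.
Rplp0: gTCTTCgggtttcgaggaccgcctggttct
Rps2: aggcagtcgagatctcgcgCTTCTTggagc
Rpl4: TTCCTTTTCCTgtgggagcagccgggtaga
Rpl35: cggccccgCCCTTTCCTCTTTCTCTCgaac
Rpl5: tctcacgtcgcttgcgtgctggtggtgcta
Rps24: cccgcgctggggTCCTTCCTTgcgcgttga
Rps28: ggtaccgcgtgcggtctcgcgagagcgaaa
Rps27l: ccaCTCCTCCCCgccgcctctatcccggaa
Rps27: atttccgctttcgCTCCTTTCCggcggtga
The windows lie at chr5:115559452-115559481 for Rplp0 (plus strand), chr17:24720048-24720077 for Rps2 (plus strand), chr9:64173372-64173401 for Rpl4 (plus strand), chr2:39005117-39005146 for Rpl35 (minus strand), chr5:107900513-107900542 for Rpl5 (plus strand), chr14:24490663-24490692 for Rps24 (plus strand), chr17:33824548-33824577 for Rps28 (minus strand), chr9:66946071-66946100 for Rps27l (plus strand) and chr3:90213634-90213663 for Rps27 (minus strand). RefSeq windows were given for 66 of the 87 members, with 78 starts in all. A run of at least 8 C or T within 30 bases of the start, on the strand of the gene, was found in 49 of the 78 windows (62.8%), against 27.3% of 32851 windows of all genes. The letters CCGGAAG, a site of the ETS-type factor GABP, lay on either strand of 34.6% of the members' windows of 250 bases before to 50 bases after the start, against 8.86% of all windows. The letters AAGATGGC, a site of YY1, lay in 10.3% against 2.75%, and TATAAA in 8.97% against 13.6%. A match describes the letters only. In the 30 bases shown, the marked run lay wholly before the annotated start in Rplp0, Rpl4 and Rps27l, and Rps28 and Rpl5 had no run of 5. Rpl5 did have a run of at least 8 within 30 bases of its start, and Rps28 did not. Rps24 and Rps27l each have another RefSeq start, not shown, whose 30 bases held no run of 5.

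Members took 9.91% of all counts of the total epithelium library (9.89 to 9.93%) and 4.46% of those of the sorted basal library (4.43 to 4.48%). Within the total epithelium, the share was 8.95% in basal-like cells (8.92 to 8.99%), 9.70% in LP-like cells (9.66 to 9.74%) and 10.8% in ML-like cells (10.76 to 10.82%). The order was basal-like, LP-like, ML-like, and the counting intervals of neighbours did not overlap. The spread between cells was wide beside these steps. Between the quartiles, cells spanned 7.36 to 10.3% in basal-like, 8.25 to 11.5% in LP-like and 8.76 to 12.5% in ML-like cells, around medians of 8.79%, 9.93% and 10.6%. The SD over cells was 2.17 percentage points in basal-like cells, where sampling of molecules alone gave 0.685, so that most of the spread was beyond counting error.

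**Figure D1:**
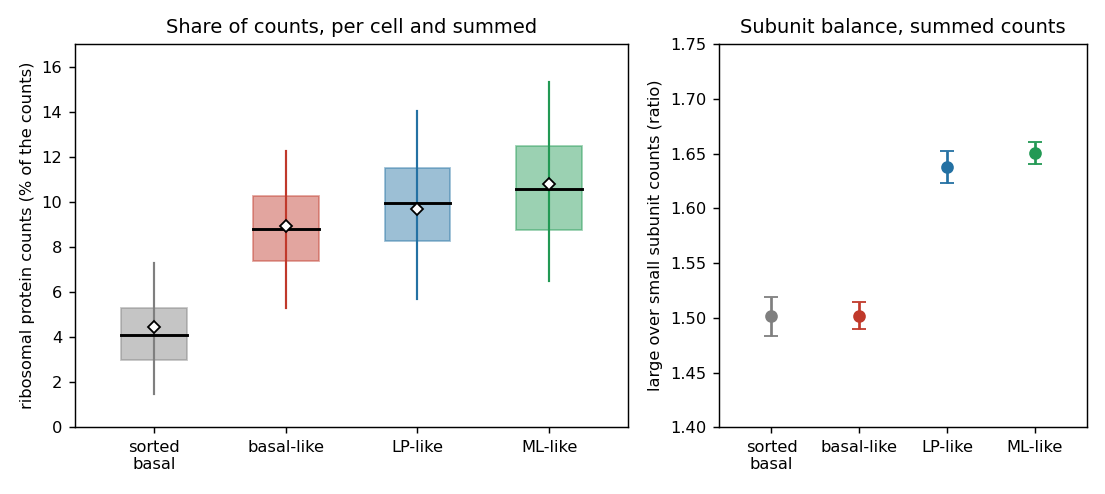
Left, ribosomal protein counts as a percentage of a cell's counts; boxes span the quartiles, bars the 5th to 95th percentile of cells, black lines the median over cells, and diamonds the share of summed counts. Right, counts of large over small subunit symbols with 95% counting intervals, on an axis that does not start at 0. The share steps up from basal-like to LP-like to ML-like cells and is lowest in the sorted basal library. With all members counted, the subunit ratio is 1.501 and 1.502 in the basal groups and 1.64 and 1.65 in the luminal groups.

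Depth moved with the share. From the shallowest to the deepest of 3 equal groups of cells it went from 8.44 to 9.28% in basal-like and from 10.1 to 11.1% in ML-like cells, but from 10.3 to 9.39% in LP-like cells. Among cells of 1500 to 3000 counts, the share was 8.87% in basal-like, 10.1% in LP-like and 10.2% in ML-like cells, so the step from basal-like to luminal cells remained and that from LP-like to ML-like narrowed. The order of the luminal groups also turned with the denominator. Without the 50 most abundant other genes, the share was 13.7% in ML-like and 13.9% in LP-like cells. The 8 LP markers alone summed to 59617 CPM in LP-like against 5535 CPM in ML-like cells, and their part in the turn was not tested.

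The balance of the subunits was higher in luminal than in basal-like cells when all members were counted. Large subunit symbols had 1.502 counts for every small subunit count in basal-like cells (1.49 to 1.51), 1.64 in LP-like cells (1.62 to 1.65) and 1.65 in ML-like cells (1.64 to 1.66). The intervals of the luminal groups overlapped each other, and neither reached that of basal-like cells. A set of 3 genes, chosen after their values were seen, together held 22.2% of the members' counts in basal-like and 23.4% in LP-like cells. These were Rpl3, whose protein lines the site of peptide bond formation, Rplp0, the base of the stalk that recruits elongation factors, and Rps2, a small subunit protein near the mRNA entry. All 3 raised the balance of LP-like over basal-like cells, so leaving them out had to lower it and is no test. Rps4x and Rpl7, which moved this balance the other way (0.112 and -0.0737 percentage points of all counts), were kept. Without the 3 genes, the log2 ratio of the balance in LP-like over that in basal-like cells was 0.01 (-0.0056 to 0.0335) in place of 0.12, with an interval that included no difference. The intervals of these ratios are approximate 95% intervals. That of ML-like over basal-like cells was 0.07 (0.0536 to 0.0867) in place of 0.14, and that of ML-like over LP-like cells 0.056 (0.0389 to 0.0736) in place of 0.011 (-0.0042 to 0.0267). With all members, the ratio of ML-like over LP-like cells was also above 0 in the common depth window of 1500 to 3000 counts (0.0058 to 0.0632) and without the deepest 10% of cells (0.0042 to 0.0387). Balance in counts is not balance in molecules of protein, since 3′ counts depend on how well each mRNA is captured and placed.

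A few members held most of the counts. The 10 highest in the total epithelium took 50.5% of the members' counts there, against 36.7% in the sorted basal library. Each molecule is counted once near its 3′ end, so levels are CPM and were not divided by length. Levels of single members also depend on how many reads could be told from close copies elsewhere in the genome, since reads that fit several places are dropped by such counting.

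Rpl3 (chr15:80077791-80091868, minus strand) was the highest member, at 8149 CPM in basal-like, 9415 CPM in LP-like, 9783 CPM in ML-like and 2850 CPM in sorted basal cells. Rplp0 (chr5:115559467-115563727, plus strand), next in the sum of the total epithelium, had 5272, 7624, 8114 and 1668 CPM in the same order, below Rps2 in basal-like and sorted basal cells. Rps2 stood at 6424, 5649, 6536 and 2439 CPM. Rps4x, the X-linked copy of a small subunit protein, had 4617, 5742, 4873 and 1248 CPM, the highest of these in LP-like cells. Rpl4, which lines the exit tunnel, had 4635, 3974, 4734 and 2211 CPM. In all 5, the sorted basal library lay below each lineage by more than the lineages differed among themselves. At the low end, Rpl36al had 47.7 CPM in the total epithelium, Rpl35a and Rps27rt had 16.0 CPM each, Rpl3l had 3.79 CPM and Rpl29 had 0.867 CPM. Rpl29 encodes a core protein of the large subunit, and the part of read placing in its low count was not tested. Rpl10l and Rpl39l, paralogs known from the testis, had no count in either library, and a floor of 3 counts, which is no exact interval, corresponds to 0.325 CPM in the total epithelium and 1.21 CPM in the sorted basal library.

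**Figure D2:**
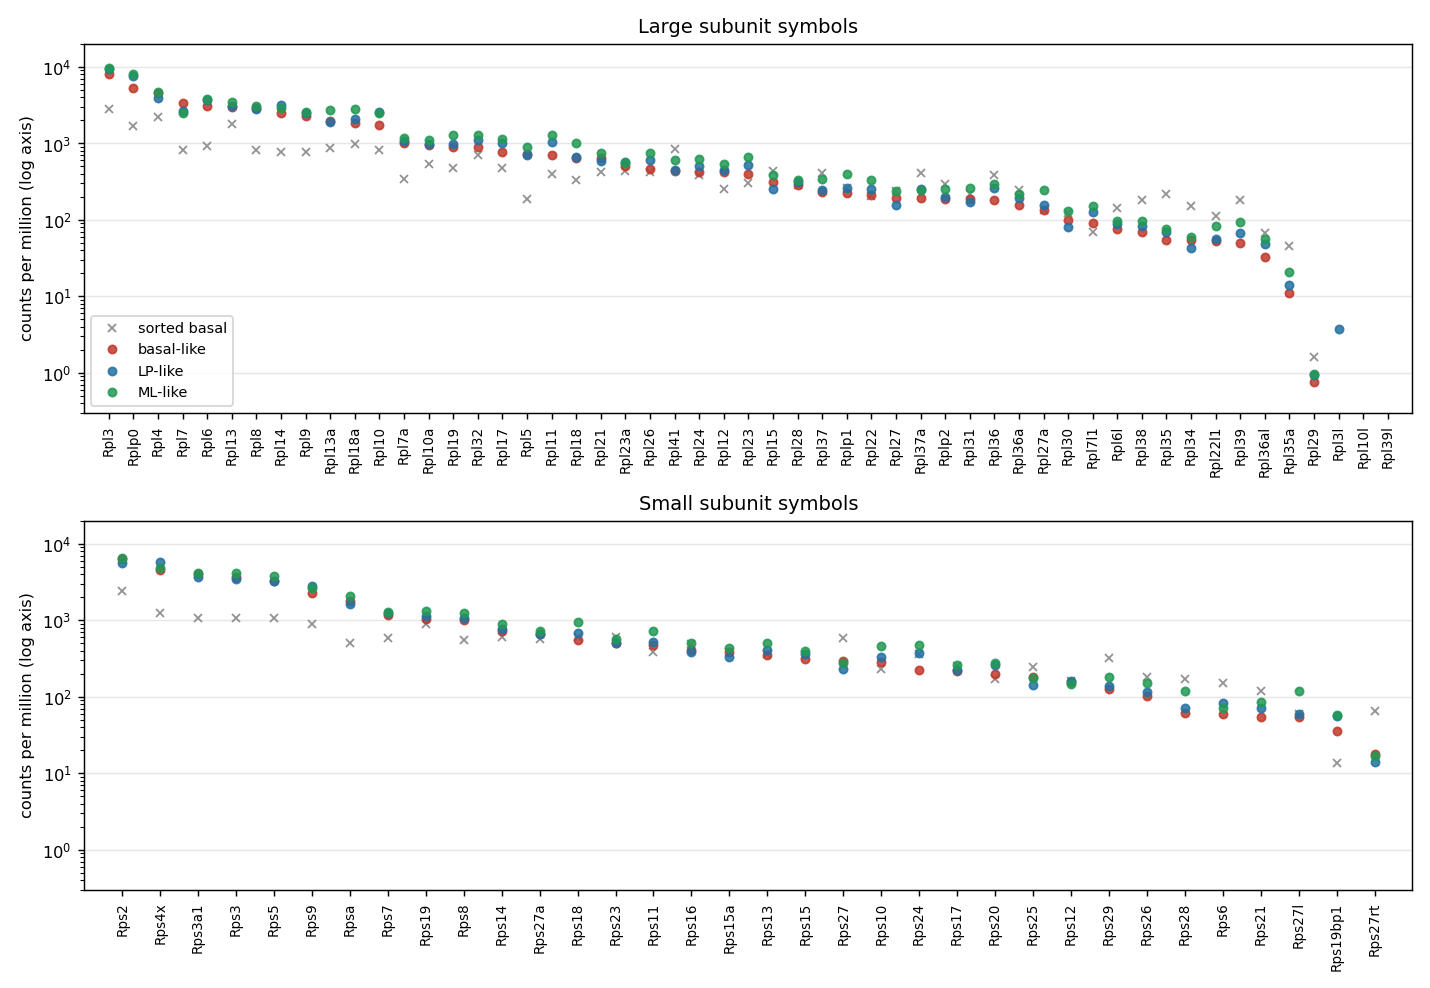
Level of each member in CPM of the summed counts (log axis), ordered by the basal-like level within each subunit; a group with no count has no symbol. Rpl3 is highest in each group, the basal-like, LP-like and ML-like points of a gene lie close together, and the sorted basal crosses lie below them for the abundant members on the left and above them for many low members on the right.

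Basal-like and LP-like cells were compared first. Of the 81 members that reached a mean of 20 CPM over both groups, 60 were higher and 21 lower in LP-like cells, with a median log2 ratio of 0.15. Only Rps24 and Rps19bp1 were at least 1.5-fold higher and no member was 1.5-fold lower, beside 17.4% of all 5327 genes tested that were higher and 29.9% that were lower by that fold (47.3% in either direction). The median of all genes was -0.17, and relative to it 10 members were 1.5-fold higher and none lower (22.3% and 23.8% of all genes, 46.1% together). The quartiles of the members were 0.32 apart, those of all genes 1.04.

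Rps24, a small subunit protein with several splice forms, had 222 CPM in basal-like, 378 CPM in LP-like and 483 CPM in ML-like cells. Its log2 ratio of LP-like to basal-like cells was 0.77 (0.62 to 0.93). Rps19bp1, which binds the small subunit protein Rps19, had 35.4, 56.5 and 57.6 CPM, with a log2 ratio of 0.67 (0.27 to 1.08). Rpl11, which with Rpl5 carries the 5S ribosomal RNA and binds Mdm2 when assembly fails, had 708, 1057 and 1274 CPM and a log2 ratio of 0.58 (0.49 to 0.67), just under the 1.5-fold line. At the other end, Rpl7 had 3371, 2634 and 2514 CPM with a log2 ratio of -0.36 (-0.40 to -0.31), Rps27 had 292, 229 and 276 CPM with a log2 ratio of -0.35 (-0.51 to -0.18), and Rpl34 had 54.3, 42.6 and 59.0 CPM with an interval that included no difference (-0.74 to 0.04). In the share itself, Rplp0 added the most, 0.235 percentage points of all counts, followed by Rpl3 with 0.127 and Rps4x with 0.112, whereas Rps2 and Rpl7 contributed -0.0775 and -0.0737.

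ML-like cells were compared with basal-like cells next. Of 81 members, 77 were higher and 4 lower, with a median log2 ratio of 0.38 (all genes 0.09). At least 1.5-fold higher were 22 members and none was lower, beside 28.9% of all 5556 genes higher and 25.5% lower (54.4% in either direction). Relative to the median gene the count was 15 higher and none lower (25.6% and 28.0% of all genes, 53.6% together), and the members' median was 0.29, beside 0.32 for LP-like against basal-like cells. Other genes with short coding sequences were also higher in ML-like cells, with medians of 0.47 up to 300 nt of coding length and 0.35 from 300 to 450 nt. Relative to other genes of like coding length, 3 members were 1.5-fold higher and 1 lower (25.2% and 26.5% of all genes, 51.7% together). On that scale 7 were higher and none lower in LP-like cells (21.9% and 23.2% of all genes, 45.1% together).

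Rps27l, a paralog of Rps27 known as a target of p53, led with 53.9 CPM in basal-like, 58.8 CPM in LP-like and 119 CPM in ML-like cells. It was higher by 1.14 on the log2 scale (0.87 to 1.42) in ML-like than in basal-like cells, and by 1.02 (0.73 to 1.31) in ML-like than in LP-like cells. Its parent Rps27 had a log2 ratio of -0.08 (-0.22 to 0.05) between ML-like and basal-like cells. Rps24 followed with 1.12 (0.99 to 1.26) and Rps28, a small protein at the mRNA exit, with 0.97 (0.71 to 1.24), from 60.7 CPM in basal-like to 119 CPM in ML-like cells. Rpl7 was again the lowest at -0.42 (-0.46 to -0.38) and the one member whose interval lay below no difference. Next to it stood Rps12 at -0.09 (-0.28 to 0.09) and Rps27. Rplp0 again added the most to the share, 0.284 percentage points, before Rpl3 with 0.163.

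Between ML-like and LP-like cells, the median log2 ratio of the members was 0.25 beside 0.30 for all genes, 0.04 apart. At least 1.5-fold higher in ML-like cells were 9 of 81 members and none was lower, beside 31.2% of all 5178 genes higher and 14.2% lower (45.4% in either direction). Relative to the median gene the count was 1 higher and none lower (17.2% and 21.1% of all genes, 38.3% together), and relative to other genes of like coding length none was higher and 2 were lower (16.5% and 20.8% of all genes, 37.3% together). Rps27l, Rps28 (0.72, 0.46 to 0.99) and Rpl30 (0.71, 0.46 to 0.97) were the highest. Rps4x was the lowest at -0.24 (-0.27 to -0.20), before Rps6, the substrate of S6 kinase, at -0.21 (-0.48 to 0.07) and Rps12 at -0.14 (-0.33 to 0.06). The comparisons of LP-like and of ML-like cells with basal-like cells share the latter group, so their values stand side by side and are not independent of each other.

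**Figure D3:**
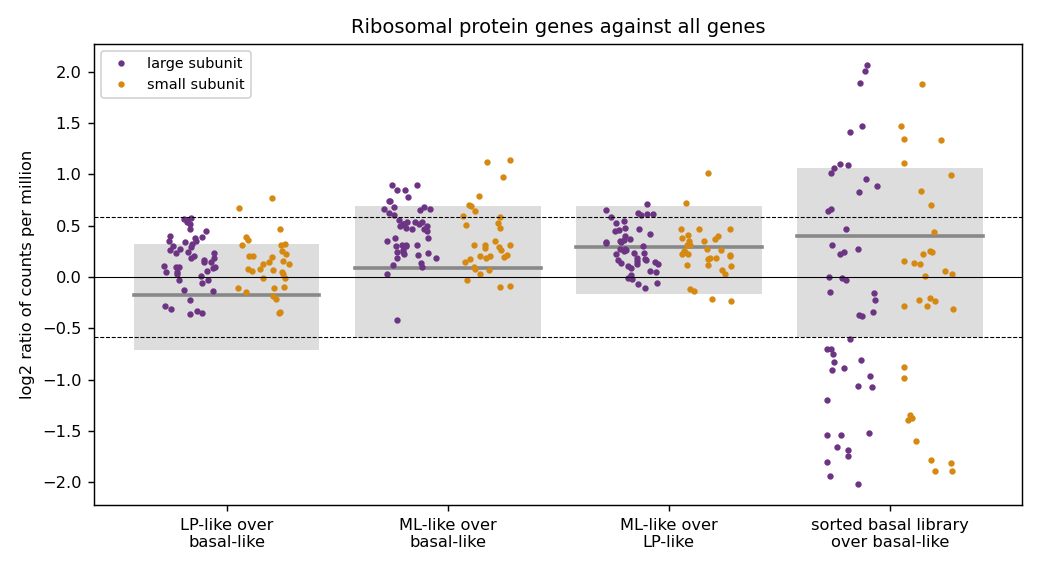
Log2 ratio of CPM of each tested member in the 4 comparisons (points), with the quartile range (grey box) and the median (grey line) of all genes tested; dashed lines mark 1.5-fold. Members lie in a narrow band in the 3 lineage comparisons, from -0.42 to 1.14, and spread from -2.02 to 2.07 between the sorted basal library and the basal-like cells.

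By role in the ribosome, the stalk genes had log2 ratios above 0 in both luminal groups against basal-like cells. So had most members, 60 of 81 in LP-like and 77 of 81 in ML-like cells. Rplp1, which pairs with Rplp2 to form the arms of the stalk, had a log2 ratio of 0.23 (0.06 to 0.40) in LP-like and 0.85 (0.71 to 0.99) in ML-like against basal-like cells. Rplp2 had 0.10 (-0.09 to 0.29) and 0.45 (0.29 to 0.60), and Rplp0 0.53 (0.50 to 0.56) and 0.62 (0.59 to 0.65). The stalk genes together took 0.568% of all counts in basal-like, 0.809% in LP-like and 0.877% in ML-like cells. The partners of the 5S particle differed in LP-like against basal-like cells, where Rpl5 had a log2 ratio of -0.03 (-0.13 to 0.07) and Rpl11 had 0.58. In ML-like against basal-like cells both were higher, Rpl5 at 0.31 (0.23 to 0.39) and Rpl11 at 0.85 (0.77 to 0.92). The 9 exit tunnel genes ranged from -0.22 (Rpl4) to 0.45 (Rpl39) in LP-like against basal-like cells and from 0.03 (Rpl4) to 0.90 (Rpl39) in ML-like against basal-like cells, with 3 of 9 at least 1.5-fold higher in the latter, beside 28.9% of all genes. The 14 genes of the head of the small subunit had medians of 0.10 and 0.31, and 3 of 14 were at least 1.5-fold higher in ML-like cells, below the share of all genes.

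The paralogs were low beside their parents. Rpl22l1 had 52.8, 57.0 and 83.0 CPM in basal-like, LP-like and ML-like cells, against 213, 256 and 337 CPM for Rpl22, which it can replace. Rpl36al had 33.2, 48.6 and 57.1 CPM, against 156, 196 and 220 CPM for Rpl36a. Rpl7l1, which acts in ribosome assembly, had 91.3, 126 and 152 CPM and was higher in luminal cells where Rpl7 was lower, with log2 ratios of 0.47 (0.21 to 0.72) and 0.74 (0.52 to 0.96) over basal-like cells. Rpl6l had 76.9, 87.6 and 95.6 CPM, against 3102, 3713 and 3849 CPM for Rpl6, whose reads it can share. Rpl3l, known from muscle, had 35 counts in 10 cells of the total epithelium, of which 26 counts lay in 7 of the 97 cells that passed no threshold.

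Genes of the same translational class or pathway, taken from lists, did not all follow the members. Beside the counts below, 17.4% of all genes were 1.5-fold higher and 29.9% lower in LP-like cells, and 28.9% and 25.5% in ML-like cells. Fau, a subunit gene with another symbol, had log2 ratios of 0.34 in LP-like and 0.35 in ML-like against basal-like cells. Gnb2l1, which encodes the subunit protein Rack1, had 0.04 and 0.35. Of 19 elongation and initiation factors and like mRNAs, none was 1.5-fold higher and 3 were lower in LP-like cells, and 2 were higher and 3 lower in ML-like cells. The medians of this list were 0.10 and 0.30, beside 0.15 and 0.38 for the members. Against these medians, Tpt1, a classic mRNA of the oligopyrimidine class, was lower in both, at -0.64 and -0.87. Of 18 ribosome assembly genes tested, 7 were 1.5-fold lower and none higher in LP-like cells (median -0.45), and 6 were lower and 2 higher in ML-like cells (median -0.43). The lowest ratio of this list was that of Nop58, a core protein of small nucleolar particles, with 751 CPM in basal-like, 154 CPM in LP-like and 145 CPM in ML-like cells. The highest was that of Nhp2, a protein of another class of such particles, with 82.2, 109 and 231 CPM. Of the genes of the TOR pathway and its control of such mRNAs, 2 of 5 tested were 1.5-fold lower and none higher in LP-like cells, and 1 of 6 was higher and 1 lower in ML-like cells. Among them Myc, a transcription factor that drives ribosome production, had 730, 307 and 132 CPM. Of the mitochondrial ribosomal protein genes, 36 of 65 tested were at least 1.5-fold higher and 1 was 1.5-fold lower in ML-like than in basal-like cells (median 0.63). In LP-like cells 10 of 61 were at least 1.5-fold higher and 4 lower (median 0.07).

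The sorted basal library was set against the basal-like cells of the total epithelium, which the gate should share. The members' share was 4.46% against 8.95%, with large to small subunit ratios of 1.501 (1.48 to 1.52) and 1.502 (1.49 to 1.51). This match held with all members counted. Without Rpl3, Rplp0 and Rps2, chosen after their values were seen, the log2 ratio of the balance in sorted over basal-like cells was 0.074. Its approximate interval (0.0506 to 0.0967) did not include no difference. Restricted to the 1757 sorted cells that passed the basal threshold, the share was 4.53% and the large to small subunit ratio 1.51. Among cells of 500 to 1500 counts in both libraries, it was 4.70% in 2267 sorted and 8.39% in 404 basal-like cells. From the shallowest to the deepest of 3 equal groups of sorted cells, the share went from 3.88 to 4.89%. Mitochondrially encoded transcripts took 0.145% and 0.342% of the counts. Summed levels of 8 genes of the dissociation response were 39816 CPM in the sorted library and 30613 CPM in basal-like cells, and the sorted library held LP markers at 3777 CPM beside 4415 CPM. The part of these in the share was not tested.

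The members did not shift as a block. Of 83 tested, 22 were at least 1.5-fold higher and 31 lower in the sorted library, beside 43.8% of all 5944 genes higher and 25.0% lower (68.8% in either direction). The median of all genes was 0.40, and relative to it 15 members were higher and 41 lower (28.0% and 33.8% of all genes, 61.8% together). The highest were Rpl35a, with 45.8 CPM in the sorted library against 10.9 CPM and a log2 ratio of 2.07 (1.47 to 2.71), Rpl35, with 220 against 54.7 CPM and 2.01 (1.74 to 2.28), and Rpl39, with 184 against 49.8 CPM and 1.89 (1.61 to 2.18). The lowest were Rpl7, with 831 against 3371 CPM and -2.02 (-2.09 to -1.95), Rpl5, with 188 against 722 CPM and -1.94 (-2.09 to -1.79), and Rps3a1, with 1085 against 4032 CPM and -1.89 (-1.96 to -1.83). In the share, Rpl3, Rps2 and Rplp0 alone contributed -0.530, -0.398 and -0.360 percentage points.

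Among the members, the ratio fell with the length of the coding sequence. All 11 tested members of up to 300 nt were higher in the sorted library, with a median log2 ratio of 1.11. From 300 to 450 nt 21 of 30 were higher (median 0.24), from 450 to 600 nt 2 of 18 (median -0.65), from 600 to 900 nt 2 of 20 (median -1.57), and none of the 3 longer ones. Spearman's rho between ratio and coding length was -0.86 over 82 members, and -0.60 with transcript length over 83. These coefficients are across genes of the same summed libraries, which are not independent replicates. The level of the members with a count also rose with coding length, with rho of 0.78 in basal-like cells and 0.59 in the sorted library. The part of level in the relation of ratio to length was not tested. Rpl41, whose coding sequence of 75 nt is the shortest of the members, had 855 CPM against 440 CPM. Among the paralogs, Rpl22l1 (366 nt) had a log2 ratio of 1.09 (0.79 to 1.39), Rpl36al (318 nt) of 1.02 (0.63 to 1.41), Rps27l (252 nt) of 0.14 (-0.20 to 0.48) and Rpl7l1 (738 nt) of -0.38 (-0.67 to -0.09). Rps6 stood off the line, with 747 nt and a log2 ratio of 1.34 (1.07 to 1.62). Members of up to 450 nt held 10.3% of the members' counts in basal-like cells and 26.7% in the sorted library.

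**Figure D4:**
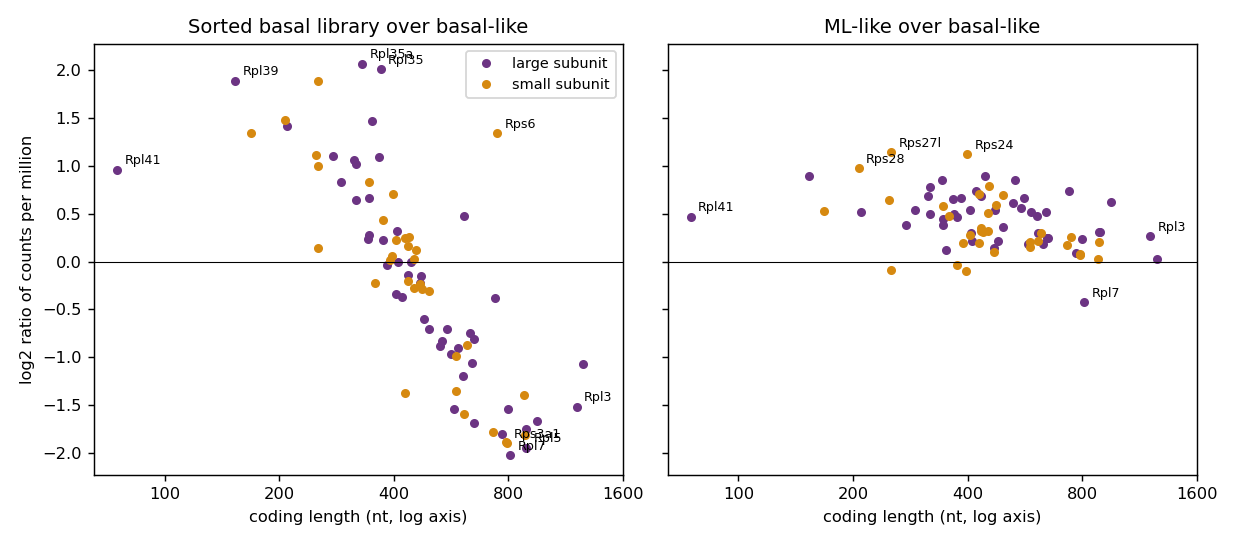
Log2 ratio of CPM against coding length (log axis) for each tested member, in the sorted basal library over basal-like cells (left) and in ML-like over basal-like cells (right). The left points descend from about 1 to 2 for the shortest members to about -2 near 800 nt, with Rps6 off the line; the right points lie between -0.42 and 1.14.

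Other genes were set beside the members by length. For genes that are not members, the median log2 ratio was 0.24 for transcripts of 400 to 600 nt (51 genes), -0.97 for 600 to 800 nt (128 genes), -1.41 for 800 to 1000 nt (211 genes) and -0.82 for 1000 to 2000 nt (1509 genes), and 0.81 for both longer classes. Among transcripts of up to 1000 nt, rho with transcript length was -0.56 over 63 members and -0.47 over 393 other genes. Over all lengths it was 0.59 for 5858 other genes, whose classes form a curve rather than a line. By coding length, members stood above other genes in the classes up to 600 nt and below them in the longer ones. Up to 300 nt the medians were 1.11 for members and -0.41 for 135 other genes, from 300 to 450 nt 0.24 and -0.88, from 450 to 600 nt -0.65 and -0.96, and from 600 to 900 nt -1.57 and -0.76. From 900 to 2000 nt, the class of Rpl3, Rplp0 and Rpl4, they were -1.52 and 0.46. Relative to other genes of like coding length, 47 of 82 members were 1.5-fold higher and 15 lower (23.6% and 24.3% of all genes, 47.9% together), in place of 22 and 31 of 83. Of 52 mitochondrial ribosomal protein genes tested, 46 were at least 1.5-fold lower and none was 1.5-fold higher (median -1.42), beside 25.0% and 43.8% of all genes. For this list and those that follow, no share of genes of like length is given, so their counts are not separated from length. Of the 19 elongation and initiation factors and like mRNAs 3 were 1.5-fold higher and 13 lower, and of 19 ribosome assembly genes 5 were higher and 5 lower by that fold. Of 5 genes of the TOR pathway 1 was 1.5-fold higher and 2 were lower. Fau had a log2 ratio of 0.34 and Gnb2l1 of -1.44. Between lineages of the same library the relation to coding length was weaker, with rho of -0.15 for LP-like and -0.41 for ML-like against basal-like cells (80 members each) and -0.39 for ML-like against LP-like cells.

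**Figure D5:**
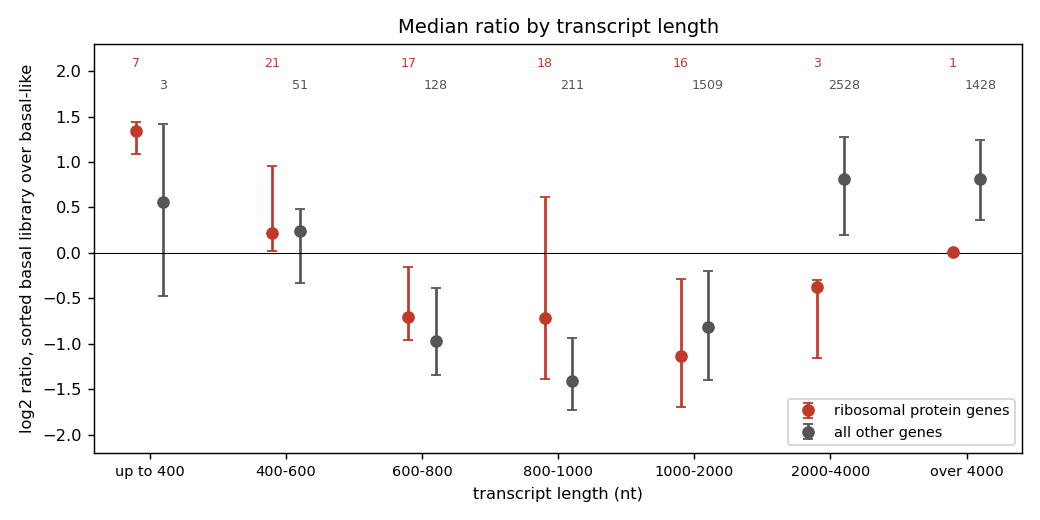
Median log2 ratio of the sorted basal library over basal-like cells by transcript length for ribosomal protein genes and for all other genes tested; bars span the quartiles and the numbers above give the genes in each class. Both sets go from above 0 in the shortest classes to below 0 between 600 and 2000 nt, and the other genes return to 0.81 above 2000 nt, where 4 members lie.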

How the data were processed

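The report rests on 2 libraries, 1 of sorted basal cells and 1 of total epithelium, each grouped by its label. The authors aligned the reads to mm10, the build also called GRCm38, with Cell Ranger, and deposited raw counts of unique molecules per gene and cell; the labels give version 1.2.1 and the study's methods name a later one. Counting keeps only reads placed at 1 gene, which lowers members with close copies, and which barcodes were taken as cells was decided before deposit. Every deposited cell was used and doublets were not called; cells past both the basal and the ML threshold were kept apart.

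Counts were summed over the cells of a group. Shares had exact binomial, levels exact Poisson and ratios exact conditional binomial intervals of 95%. Genes entered a comparison at a mean of 20 CPM over both groups, and a 1.5-fold difference was counted as past the fold. No test was made, since each gate gave 1 library and the lineage groups are cells of 1 library. Intervals of ratios of balances are normal approximations. Positions and lengths came from GENCODE (GRCm38) by gene ID, with the principal transcript of each gene, and promoter windows from RefSeq. The computation was tested on simulated counts. Named genes were the 5 highest and 5 lowest members, the 3 highest and 3 lowest ratios of each comparison, paralogs with their parents, and the role lists; Rpl41, Nop58, Nhp2, Myc, Tpt1, Fau, Gnb2l1 and Rpl7l1 beside Rpl7 were added as examples after their values were seen. One listed gene is not reported here. Members and lists were chosen with earlier results of these data known. Python 3.11.15, numpy 2.4.6, scipy 1.17.1, pandas 2.3.3 and matplotlib 3.10.9 were used.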

Additional observations from a re-analysis of the deposited data

How the results depend on the processing

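There was 1 library of 1 pool per gate, and the lineage groups are cells of the same library, so the values have no replicate error, and no library could be left out. No paired analysis was possible because the groups compared share fewer than 2 replicate numbers. Alternatives added after seeing the data were the removal of shared barcodes, of Rpl3, Rplp0 and Rps2, and the scaling to genes of like coding length. The removal of the 28 shared barcodes kept every direction, no value left its interval and every count stayed within 1.5 times. Values below are log2 ratios of shares or of large to small subunit counts, and numbers of members past 1.5-fold; the causes of the shifts were not tested. For the share of LP-like against basal-like cells (0.12), the common depth window gave 0.18, leaving out the deepest 10% of cells 0.19, leaving out the 50 most abundant other genes 0.25 and averaging over cells 0.17. For ML-like against basal-like cells (0.27), these gave 0.20, 0.30, 0.22 and 0.28, and a stricter split of cells 0.28. For ML-like against LP-like cells (0.15), they gave 0.019, 0.11, -0.025 (turned), 0.10 and 0.17. For the sorted basal library against basal-like cells (-1.01), they gave -0.84, -1.06, -1.04 and -1.06, and sorted cells past the basal threshold -0.98. The subunit balance without Rpl3, Rplp0 and Rps2 was 0.014 for LP-like and 0.070 for ML-like against basal-like cells, and 0.056 for ML-like against LP-like cells, for which the depth window gave 0.034. For the sorted library the balance was near 0 (-0.0008) and its sign turned under the stricter split (0.0021) and with sorted cells past the threshold (0.0051). The sign also turned without the 3 genes, where the balance was 0.074, with an approximate interval (0.0506 to 0.0967) that did not include 0. Members past the fold in LP-like against basal-like cells numbered 2, and 10 relative to the median gene, 1 at a mean of 100 CPM, 0 at 2-fold and 7 relative to genes of like coding length. In ML-like against basal-like cells they numbered 22, 2 at 2-fold and 4 at like coding length. In ML-like against LP-like cells they numbered 9, and 4 in the depth window, 1 relative to the median gene, 1 at 2-fold and 2 at like coding length. In the sorted comparison they numbered 53, and 34 at 2-fold. For the 2-fold line, the mean of 100 CPM and the depth window no share over all genes is given. Counts at these settings therefore do not show whether members differed from other genes.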

Other observations

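The cells of the total epithelium outside the 3 lineage groups differed in their ribosomal protein counts. The 26 cells past both the basal and the ML threshold had a median of 4609 counts, and members took 10.3% of these (10.1 to 10.4%), with 1.61 large subunit counts for every small subunit count. The 97 cells that passed no threshold had a median of 1184 counts, a member share of 5.47% (5.36 to 5.59%) and a subunit ratio of 1.497. In these 97 cells 6 fibroblast markers summed to 8489 CPM, against 83.4 to 1419 CPM in the lineage groups, with a median of 0 counts per cell. Endothelial, glial, immune and pericyte markers summed to 650, 469, 450 and 350 CPM, against at most 54.2 CPM in the lineage groups. Krt5, Krt14, Acta2 and the other basal markers summed to 2569 CPM. The member share per cell of the 97 cells ranged from 0.476 to 18.8%. Their 10 leading members held 50.1% of the members' counts, near the 50.5% of the whole library, although their share of all counts was close to that of the sorted basal library, where these 10 held 36.7%. In the sorted basal library 19 cells had no member count at all.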
